A study of Homo sapiens with 4 samples.

Results

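The enzymes that hydroxylate and cross-link collagen were followed across RNA-Seq libraries of FaDu cells, an established human line of hypopharyngeal squamous carcinoma. The set was taken by symbol from the chromosomal rows of the expression table and comprised P4HA1, P4HA2, P4HB, PLOD1, PLOD2, PLOD3, LOX, LOXL1, LOXL2 and LOXL4, which are 10 of its 62077 rows. The choice did not use their values, although results of these data were known when it was made. The series held 4 libraries, 1 for each combination of oxygen and knockdown: N-scr (normoxia, scrambled control), N-si (normoxia, TET1-si), H-scr (hypoxia, scrambled control) and H-si (hypoxia, TET1-si). Hypoxia was 19 h at 1% oxygen with 5% CO2 and 94% nitrogen, and normoxia was air with 5% CO2. All cells had been infected with a lentiviral short hairpin vector, either scrambled or against TET1, the dioxygenase that converts 5-methylcytosine to 5-hydroxymethylcytosine. The study lists a single hairpin sequence against TET1, and the number of cultures behind each library is not given in the sources used here, so a difference between knockdown states is one between 2 infected populations.

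Collagen chains are modified in the endoplasmic reticulum before they are secreted. Prolyl 4-hydroxylase, a tetramer of catalytic alpha subunits (P4HA1, P4HA2) with the beta subunit P4HB, makes the 4-hydroxyproline that keeps the triple helix stable at body temperature. The lysyl hydroxylases PLOD1, PLOD2 and PLOD3 make hydroxylysine, and the copper enzymes of the lysyl oxidase family (LOX, LOXL1, LOXL2, LOXL4) later oxidise lysine and hydroxylysine outside the cell so that fibrils become cross-linked. The hydroxylases need molecular oxygen, iron, 2-oxoglutarate and ascorbate, and several of these genes are known as targets of the hypoxia-inducible factors (HIF) in tumour cells.

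Promoter sequences are shown first for 3 members whose level in hypoxia was 2-fold or more above normoxia with and without TET1-si (values below). LOXL2, the other such member, had no entry among the promoter sequences used here and is not shown. The sequences are given because HIF binds a core whose letters include ACGTG. Each window is 300 bases around the gene start, most of them upstream of it, taken from RefSeq on GRCh38.p14, a different build from the hg19 coordinates of the expression table. Capitals mark ACGTG on either strand, which reads CACGT where it lies on the opposite strand. All 3 lie on the minus strand and are written in the direction of transcription.
P4HA1, chr10:73096817-73097116: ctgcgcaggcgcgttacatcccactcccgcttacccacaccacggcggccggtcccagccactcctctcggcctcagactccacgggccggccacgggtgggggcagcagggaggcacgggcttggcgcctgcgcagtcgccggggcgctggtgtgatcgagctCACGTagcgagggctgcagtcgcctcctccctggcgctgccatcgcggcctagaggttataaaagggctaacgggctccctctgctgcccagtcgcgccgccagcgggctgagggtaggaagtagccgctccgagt
PLOD2, chr3:146161135-146161434: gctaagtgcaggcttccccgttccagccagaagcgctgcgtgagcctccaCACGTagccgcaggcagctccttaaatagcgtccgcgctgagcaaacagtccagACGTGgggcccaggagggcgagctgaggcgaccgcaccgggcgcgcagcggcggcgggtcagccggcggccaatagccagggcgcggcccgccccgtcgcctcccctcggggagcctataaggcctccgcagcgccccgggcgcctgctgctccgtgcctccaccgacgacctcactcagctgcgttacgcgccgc
LOXL4, chr10:98268145-98268444: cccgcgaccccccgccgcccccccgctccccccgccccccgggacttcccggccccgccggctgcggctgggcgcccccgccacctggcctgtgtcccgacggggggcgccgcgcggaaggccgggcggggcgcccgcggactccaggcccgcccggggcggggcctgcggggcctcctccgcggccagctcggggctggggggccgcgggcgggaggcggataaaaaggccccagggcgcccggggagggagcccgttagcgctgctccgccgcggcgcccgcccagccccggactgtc

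The P4HA1 window held ACGTG once, at position 165 counted from 1 at its 5′ end, and the PLOD2 window held it at positions 51 and 105. The LOXL4 window held none. Of the 9 members with a window, 3 held ACGTG (P4HA1, PLOD2 and LOX), and 7518 of 35116 windows of all genes did, which is 21.4%. LOX has 3 windows, with between 1 and 4 matches each. The letters GCGTG, the other common form of the core, stood in the windows of P4HB, PLOD1, PLOD2 and LOX and in 36.5% of all windows. Members were counted as genes with a match in any of their windows, while both shares are of single windows. The members and the shares are therefore not counted alike. A match is a description of the letters and not of a bound site, and the lack of one concerns only these 300 bases. No promoter measurement was used here.

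Values are FPKM, fragments per kilobase of exon scaled to the mapped total of the library, as the authors deposited them. Where 4 values follow each other without names, their order is N-scr, then N-si, then H-scr, then H-si. Depths recovered from the values lay between 22400000 and 24500000 reads per library. Each group had 1 library, so no difference has a replicate error, none of the 4 comparisons between libraries was tested and no p-value is given. Changes are differences in log2(FPKM + 0.1) between 2 single libraries, a scale that understates the change of low genes. A 95% counting interval is given for the log2 ratio without the added 0.1. It rests on approximate read numbers, covers counting error only and says nothing of variation between cultures. In a bulk library, fewer cells that make a transcript and less of it per cell cannot be told apart.

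The labels were checked on other genes. TET1 had 0.129, 0.0493, 0.331 and 0.122 FPKM. It was 2.63-fold lower after TET1-si in normoxia (counting interval -2.60 to -0.39) and 2.71-fold lower in hypoxia (-2.12 to -0.76), at levels that stayed low throughout. With the added 0.1 these changes were -0.62 and -0.96 on the log2 scale, both short of 2-fold. Of 6 hypoxia markers, NDRG1, EGLN3, CA9, ANKRD37, SLC2A1 and VEGFA, all were higher in both hypoxia libraries than in the matching normoxia library, from 1.75-fold for VEGFA in TET1-si cells to 43.4-fold for CA9 in scrambled cells. CA9 was listed at 0 in N-si and had 0.506 FPKM in H-si against 7.82 in H-scr. Of 7 squamous epithelial markers, KRT5, KRT17, TP63, CDH1 and EPCAM were at 42.1 FPKM or above in the 4 libraries, while KRT14 and KRT6A were at 42.1 or above in both scrambled libraries and at 1.41 or below in both TET1-si libraries. Of 7 fibroblast markers only COL1A1 reached 1 FPKM, with COL1A2 and LUM listed at 0 throughout and DCN, PDGFRB, COL3A1 and VIM at 0.406 or below. The endothelial gene CDH5 was present, at 8.75 FPKM in normoxic and 16.0 in hypoxic scrambled cells, and 21.7 and 45.5 in the corresponding TET1-si cells, with VWF between 0.16 and 2.94, and the leukocyte marker PTPRC was at 0.0101 or below.

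The levels spanned a wide range. P4HB stood at 1386 to 1847 FPKM, far above every other member, and LOXL1 lay between 0 and 0.47. LOX averaged 0.829 FPKM and LOXL1 0.179, so these 2 stayed below the minimum mean of 1 FPKM that was set for counts over genes, and 8 of the 10 members passed it. In N-scr the order after P4HB was PLOD3, PLOD2, PLOD1, LOXL2, P4HA2, P4HA1, LOXL4 and LOX. In H-si it was LOXL2, PLOD2, P4HA1, PLOD1, P4HA2, LOXL4, PLOD3 and LOX, with LOXL1 last in both. PLOD3 thus stood second in one library and eighth in the other, and LOXL2 moved up to second. Without replicates the order of neighbours at close levels, such as PLOD2 at 36.0 and PLOD1 at 34.8 FPKM in N-scr, is not established.

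**Figure D1:**
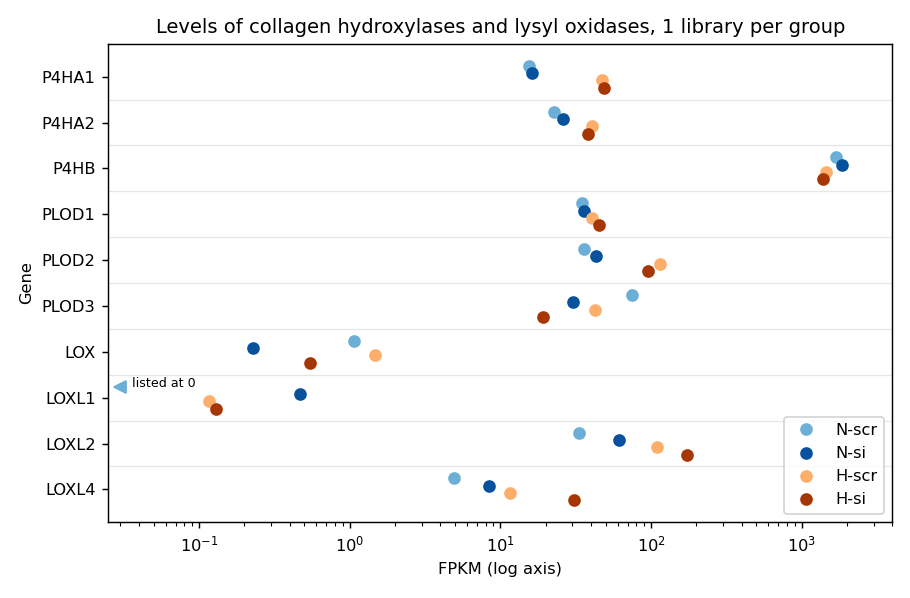
FPKM (log axis) of the 10 genes in each library. Each point is 1 library, without error bars because no group had replicates. P4HA1, P4HA2, PLOD1, PLOD2, LOXL2 and LOXL4 have both hypoxia points to the right of both normoxia points, PLOD3 and LOX have the TET1-si point to the left of the scrambled point of the same oxygen state, and the arrowhead marks LOXL1 in N-scr, which was listed at 0.

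The first comparison asked which of these enzymes changed in hypoxia. P4HA1, PLOD2, LOXL2 and LOXL4 were at least 2-fold higher in hypoxia, both in scrambled and in TET1-si cells, by 2.21 to 3.65-fold. These were 4 of the 8 members above the minimum in each comparison, against 12.9% of 15057 genes for scrambled and 12.5% for TET1-si cells. None of the 8 was at least 2-fold lower, against 4.53% and 8.66% of genes. The median change of the 10 members was 0.97 in scrambled and 0.76 in TET1-si cells (1.02 and 0.84 over the 8 above the minimum, without LOXL1 and its listed 0), and that of all genes was 0.05 and 0.03. Both values for members rest on 1 library per condition.

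P4HA1 (ENSG00000122884, chromosome 10, 74766975 to 74856732, minus strand, hg19), a catalytic subunit of prolyl 4-hydroxylase, had 15.4 and 16.3 FPKM in normoxia (scrambled, then TET1-si) and 47.6 and 48.4 in hypoxia. The pair of normoxia values lay close together, and so did the pair in hypoxia. The hypoxia ratio was 3.09 in scrambled cells (log2 counting interval 1.52 to 1.74) and 2.97 in TET1-si cells (1.47 to 1.68). The 2 responses on the log2 scale differed by -0.06, with a counting interval from -0.21 to 0.09, which is the smallest such difference among the 10. Its difference between TET1-si and scrambled cells was 0.02 in hypoxia and 0.08 in normoxia, with counting intervals that included 0 in both, and median-of-ratios scaling turned these to -0.10 and -0.09.

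P4HA2 (ENSG00000072682, chromosome 5, 131527531 to 131631008, minus strand), the second catalytic subunit, had 22.8 FPKM in N-scr and 26.2 in N-si, against 40.5 for H-scr and 38.2 for H-si. Both hypoxia libraries were higher, but by less than 2-fold, with ratios of 1.78 in scrambled and 1.46 in TET1-si cells. P4HA3, the third catalytic subunit and not among the 10, was at 0.231 to 0.505 FPKM, on approximately 12 to 23 reads. Of the summed FPKM of the 3 alpha subunits, P4HA1 made up 40% and 38.1% in the normoxia libraries (N-scr, then N-si) and 53.9% and 55.6% in the hypoxia libraries. P4HA2 was thus the more abundant alpha transcript in normoxia and P4HA1 in hypoxia, in both knockdown states.

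P4HB (ENSG00000185624, chromosome 17, 79801035 to 79818570, minus strand) encodes the beta subunit, which is also protein disulfide isomerase and serves many other proteins. It had 1700 FPKM in normoxic and 1443 in hypoxic scrambled cells, and 1847 and 1386 in the corresponding TET1-si cells. Unlike the alpha subunits it was lower in hypoxia, with changes of -0.24 in scrambled and -0.41 in TET1-si cells. The summed alpha subunits had 38.6, 42.7, 88.4 and 87.1 FPKM. P4HB exceeded that sum 44.1-fold in N-scr and 43.2-fold in N-si, and 16.3-fold in H-scr and 15.9-fold in H-si. A non-coding gene on the opposite strand within the P4HB locus, RP11-498C9.2, was listed at 227.3 to 305.4 FPKM, and without strand information its reads and those of P4HB cannot be told apart.

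PLOD2 (ENSG00000152952, chromosome 3, 145787227 to 145881440, minus strand), the lysyl hydroxylase that acts on the telopeptides of fibrillar collagen, had 36.0 and 43.3 FPKM in normoxia (scrambled, then TET1-si) and 115.1 and 95.8 in hypoxia. In scrambled cells the hypoxia value was higher 3.20-fold (counting interval 1.62 to 1.74) and in TET1-si cells 2.21-fold (1.09 to 1.20). The response in TET1-si cells was smaller by 0.53 on the log2 scale, with N-si above N-scr and H-si below H-scr.

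PLOD1 (ENSG00000083444, chromosome 1, 11994262 to 12035599, plus strand), which hydroxylates lysine in the helical part of collagen, had 34.8 FPKM in N-scr and 36.0 in N-si, against 40.4 for H-scr and 45.2 for H-si. Its changes in hypoxia were 0.22 and 0.33, and its values stayed within the narrowest relative range of the lysyl hydroxylases. PLOD3 (ENSG00000106397, chromosome 7, 100849258 to 100861701, minus strand), which also carries the glycosyltransferase activity that builds sugars onto hydroxylysine, had 74.6 FPKM in normoxic and 42.5 in hypoxic scrambled cells, and 30.4 and 19.1 in the corresponding TET1-si cells. It was the member with the largest decrease in hypoxia in scrambled cells, 1.76-fold, with 1.59-fold in TET1-si cells. Only 7.48% of all genes had a lower change in scrambled cells, and 16.3% had in TET1-si cells.

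The 3 lysyl hydroxylases therefore differed in direction, and their proportions shifted. PLOD2 made up 24.7% of their summed FPKM in normoxia and 58.1% in hypoxia among scrambled cells, with 39.5% and 59.9% among TET1-si cells. PLOD3 made up 51.3% and 21.4% among scrambled cells and 27.7% and 11.9% among TET1-si cells. The largest share thus belonged to PLOD3 in N-scr and to PLOD2 in the other libraries. PLOD1 was between 20.4% and 32.9%.

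**Figure D2:**
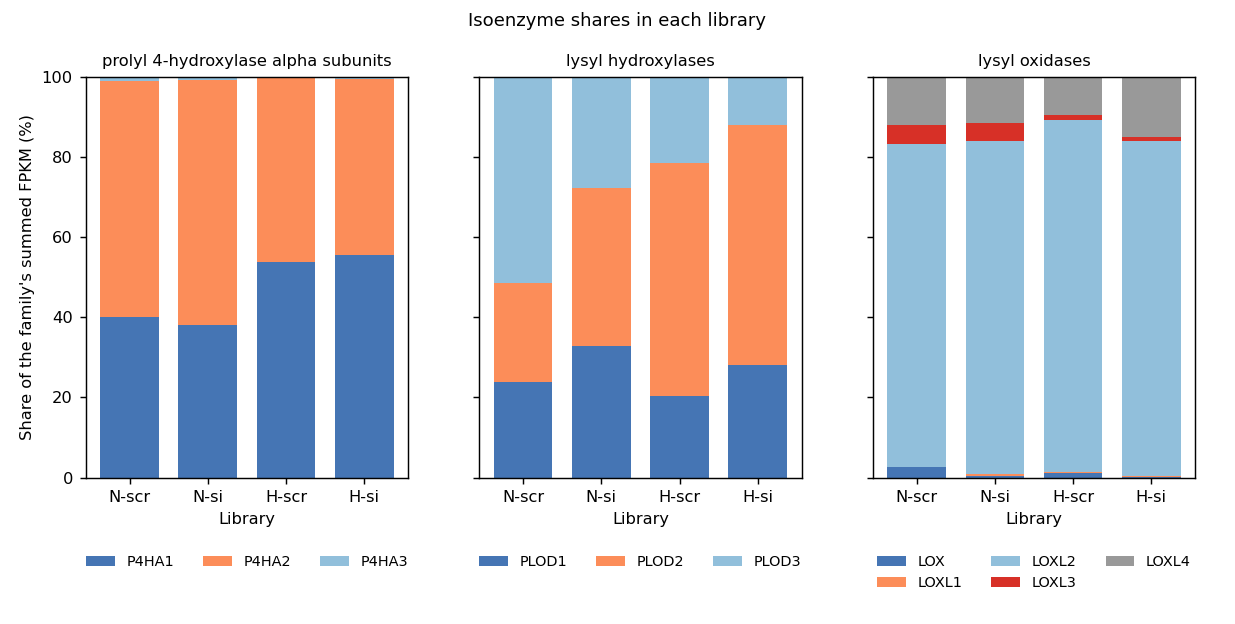
Share (%) of each gene in the summed FPKM of its family, by library (1 library per bar). PLOD2 makes up 58.1% and 59.9% of the lysyl hydroxylase sum in the 2 hypoxia libraries, P4HA1 passes P4HA2 in both of them, and LOXL2 makes up 80.6% to 87.9% of the lysyl oxidase sum in all 4 libraries.

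LOXL2 (ENSG00000134013, chromosome 8, 23154702 to 23282841, minus strand), a secreted lysyl oxidase that cross-links type IV collagen, was the main transcript of its family. It had 33.4 and 61.2 FPKM in normoxia (scrambled, then TET1-si) and 109.7 and 173.1 in hypoxia. Each of the 2 hypoxia values was above both normoxia values, and each TET1-si value was above its scrambled counterpart. The hypoxia ratio was 3.29 in scrambled cells (counting interval 1.65 to 1.78) and 2.83 in TET1-si cells (1.45 to 1.55). The former was larger than the change of 94.9% of all genes. The non-coding gene RP11-177H13.2, on the opposite strand within the locus, moved in the same order (1.04, 2.49, 4.36 and 6.72 FPKM), and ENTPD4, which overlaps LOXL2 on the same strand, had 18.2, 34.6, 23.7 and 33.8 FPKM.

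LOXL4 (ENSG00000138131, chromosome 10, 100007447 to 100028007, minus strand), another secreted member of the family, had 4.96 FPKM in N-scr and 8.38 in N-si, against 11.6 for H-scr and 30.6 for H-si. The order of the libraries was the same as for LOXL2, and also as for P4HA1 and PLOD1. The hypoxia ratio was 2.35 in scrambled cells (1.06 to 1.41) and 3.65 in TET1-si cells (1.75 to 1.99), so that LOXL4 was the one gene of those 4 whose response was larger in TET1-si cells. The difference was 0.64 on the log2 scale, with a counting interval from 0.43 to 0.85. RP11-34A14.3, on the opposite strand within LOXL4, had 1.14, 2.17, 2.68 and 8.14 FPKM, and its reads cannot be told apart from those of LOXL4 either. The summed fibroblast list stood in the same order of libraries as LOXL2 and LOXL4 (5.66, 14.2, 29.1 and 37.3 FPKM), which was nearly all COL1A1, with COL1A2 and LUM at 0, and the endothelial list had 8.91, 22.2, 17.8 and 48.4 FPKM. Their part in these values was not tested.

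LOX (ENSG00000113083, chromosome 5, 121398890 to 121413980, minus strand), the founding member of the family and known as a HIF target in other tumour cells, was low in FaDu cells. It had 1.07, 0.227, 1.48 and 0.542 FPKM, on approximately 119, 27, 176 and 59 reads. Within each knockdown state the hypoxia value was higher, 1.38-fold in scrambled cells (counting interval 0.12 to 0.82) and 2.39-fold in TET1-si cells (0.58 to 1.97). Its mean placed it below the minimum, so it does not enter the counts.

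LOXL1 (ENSG00000129038, chromosome 15, 74218330 to 74244478, plus strand), known for cross-linking elastin, was listed at 0 in N-scr and had 0.47 FPKM in N-si, with 0.116 and 0.129 in the scrambled and TET1-si hypoxia libraries, on approximately 25 reads in N-si and 6 in each hypoxia library. Since a listed 0 may be an estimate that failed, no fold is given against it. H-si was 3.63-fold lower than N-si (counting interval -3.51 to -0.61). LOXL1-AS1, which overlaps LOXL1 on the opposite strand, had 0.339, 0.562, 0.934 and 0.227 FPKM, above LOXL1 in each library. Without strand information its reads cannot be told apart from those of LOXL1. LOXL3, the family member outside the 10, had 1.98 FPKM in normoxic and 1.85 in hypoxic scrambled cells, and 3.45 and 2.12 in the corresponding TET1-si cells. Together the 5 lysyl oxidases summed to 41.4 and 73.7 FPKM in normoxia (scrambled, then TET1-si) and 124.8 and 206.5 in hypoxia, which was mostly LOXL2.

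**Figure D3:**
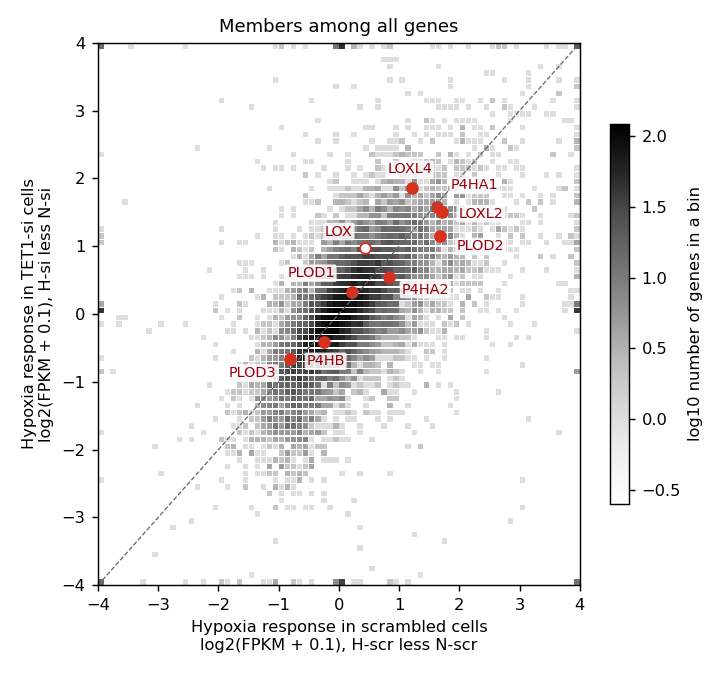
Hypoxia response of each gene in scrambled cells (x axis) against that in TET1-si cells (y axis), as differences in log2(FPKM + 0.1). Grey squares are 15057 genes with a mean of at least 1 FPKM, binned and held at the axis limits beyond them, red points are the 8 members above that minimum, the open point is LOX below it, LOXL1 is left out because N-scr was listed at 0, and the dashed line marks equal responses. P4HA1, PLOD2, LOXL2 and LOXL4 lie above 1 on both axes, and LOXL4 lies above the line while PLOD2 lies below it.

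The second comparison asked which of these enzymes differed after TET1-si. PLOD3 was at least 2-fold lower after TET1-si under both oxygen states, and LOXL4 was at least 2-fold higher under hypoxia. Under hypoxia this was 1 of 8 members higher, against 12.0% of genes, and 1 of 8 lower, against 8.35%. Under normoxia 0 of 8 were higher, against 12.1% of genes, and 1 of 8 was lower, against 5.56%. Each of these counts is a single gene or none. The excess of higher over lower genes in this comparison depended on scaling: 59.0% of the changed genes were higher under hypoxia as deposited and 49.2% after median-of-ratios scaling, and 68.6% and 56.0% under normoxia. The median change of all genes was 0.10 under hypoxia and 0.15 under normoxia, and that of the 10 members was -0.02 and 0.16.

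PLOD3 was 2.46-fold lower in N-si than in N-scr (counting interval -1.37 to -1.22) and 2.22-fold lower in H-si than in H-scr (-1.25 to -1.05). Both TET1-si values (30.4 and 19.1 FPKM) lay below both scrambled values (74.6 and 42.5). The gene stands on chromosome 7, whose 550 expressed protein-coding genes had a median TET1-si change of -0.26 in normoxia and -0.32 in hypoxia. Among its 50 nearest expressed protein-coding genes, a comparison added with the results in view, the medians were -0.17 and -0.21. Of these 50, 34 were below 0 under normoxia and 31 under hypoxia, and 0 and 2 of them were lower than PLOD3. Relative to the median of its neighbours PLOD3 changed by -1.12 and -0.93. ZNHIT1, which overlaps the start of PLOD3 on the opposite strand, had 51.8 FPKM in N-scr and 28.8 in N-si, against 44.5 for H-scr and 33.5 for H-si, so it too was lower in both TET1-si libraries. Of the 7 squamous markers, KRT5, KRT14, KRT6A, KRT17 and TP63 were lower after TET1-si in both oxygen states and CDH1 and EPCAM were higher in both, and the list summed to 4670, 1804, 7391 and 3831 FPKM, mostly KRT5 and KRT17. The part of the chromosome and of the epithelial markers in the value of PLOD3 was not tested.

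**Figure D4:**
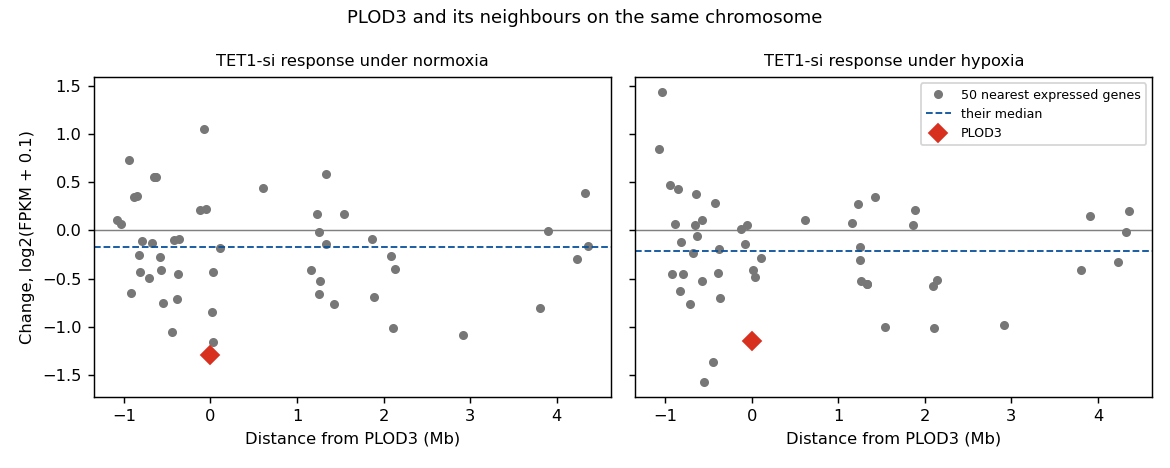
TET1-si response, as a difference in log2(FPKM + 0.1), of PLOD3 (diamond) and of its 50 nearest expressed protein-coding genes (points) by distance from PLOD3 in Mb, under normoxia (left) and hypoxia (right). The dashed line is the median of the neighbours, -0.17 and -0.21. PLOD3 lies at -1.29 and -1.15, below all 50 points under normoxia and below all but 2 under hypoxia.

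LOX was also lower in both TET1-si libraries, 4.71-fold under normoxia (counting interval -2.90 to -1.62) and 2.72-fold under hypoxia (-1.90 to -1.01). The intervals left out 0 although the levels were low. LOX met the 3 inequalities that the study's methods set for regulation by TET1 under hypoxia. H-scr had to be more than 2 times H-si and above N-scr, and N-scr at least equal to N-si. Of the 62077 rows, 4.33% met all 3. That share was taken without a minimum, and a row listed at 0 in H-scr cannot meet the first inequality. The share among expressed genes was not counted. Whether LOX belongs to the set of genes that the study reported was not checked. None of the other 9 members met all 3: PLOD3 met 2, since H-scr was not above N-scr. SRFBP1 on the opposite strand overlaps most of LOX and had 10.0, 10.4, 6.30 and 4.22 FPKM. Without strand information its reads cannot be told apart from those of LOX, and its part in the values of LOX was not tested.

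In the other direction, LOXL4 was 2.63-fold higher in H-si than in H-scr (counting interval 1.28 to 1.50) and 1.69-fold higher in N-si than in N-scr (0.58 to 0.94). Its 50 nearest neighbours had medians of -0.28 and -0.14, so it moved against them. LOXL2 was 1.58-fold higher under hypoxia (0.62 to 0.70) and 1.83-fold under normoxia (0.81 to 0.94), below 2-fold in both. The neighbours of LOXL2 had medians of 0.22 and 0.33. ENTPD4 and RP11-177H13.2, which overlap LOXL2, were also higher in each TET1-si library than in its scrambled counterpart. Their part in the values of LOXL2 was not tested.

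The remaining changes after TET1-si were small. P4HA1, P4HA2, P4HB, PLOD1 and PLOD2 lay between -0.26 and 0.27 on the log2 scale under both oxygen states, and other scalings turned the sign for P4HA1, P4HB and PLOD1. PLOD2, at 0.27 in normoxia, was at -0.06 relative to the median of its own 50 neighbours. P4HB stood apart from its surroundings: its TET1-si response was 0.12 under normoxia and -0.06 under hypoxia, while its 50 nearest neighbours near the end of chromosome 17 had medians of 0.79 and 0.85, with none and 4 of them below 0.

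**Figure D5:**
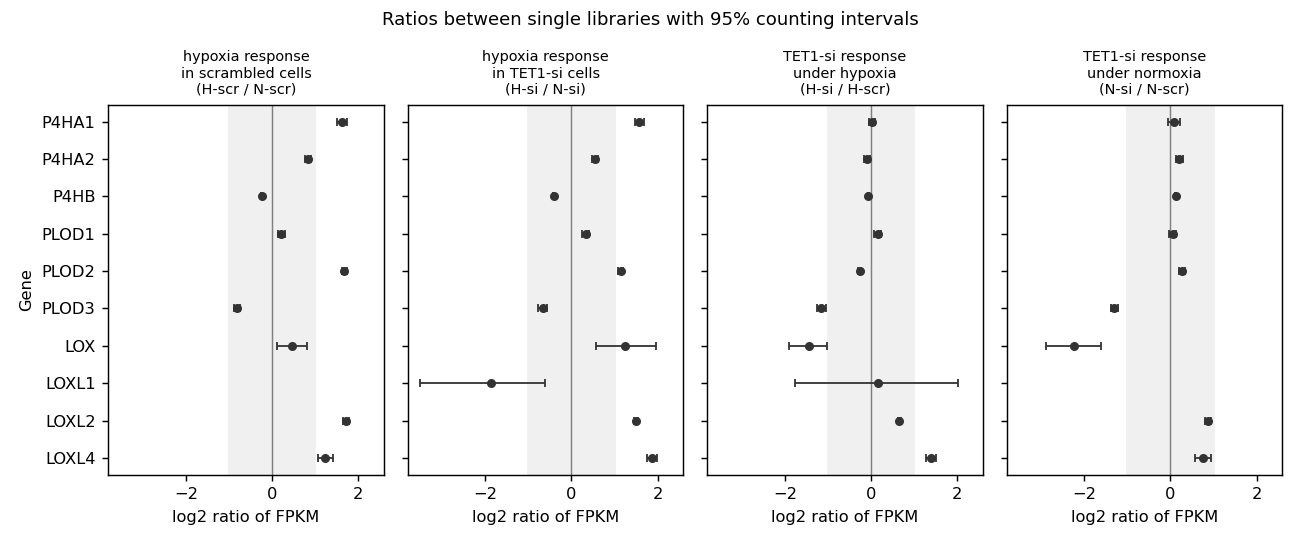
Log2 ratio of FPKM between 2 single libraries for each gene, in 4 panels for the 4 comparisons. Bars are 95% counting intervals from approximate reads and hold no variation between cultures, the grey band marks less than 2-fold, and LOXL1 is left out where N-scr was listed at 0. In the 2 hypoxia panels P4HA1, PLOD2, LOXL2 and LOXL4 lie right of the band. In that for TET1-si cells LOX also lies right of it, at 1.25, and LOXL1 left of it, at -1.86. In the 2 TET1-si panels PLOD3 and LOX lie left of the band, and LOXL4 lies right of it under hypoxia, at 1.39.

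The collagen chains, the substrates of these enzymes, were examined from a list of 44 genes, of which 43 were in the table and 19 passed the minimum. In hypoxia 5 of the 19 were at least 2-fold higher and none was at least 2-fold lower in scrambled cells (median 0.83), and 10 were higher and 2 lower in TET1-si cells (median 1.08). These counts are 26.3% higher in scrambled cells against 12.9% of all genes, and in TET1-si cells 52.6% higher and 10.5% lower against 12.5% and 8.66%. After TET1-si, 7 were higher and 2 lower under each oxygen state, with medians of 0.96 under hypoxia and 0.62 under normoxia. These counts are 36.8% higher and 10.5% lower against 12.0% and 8.35% of all genes under hypoxia and 12.1% and 5.56% under normoxia. Without the minimum these 2 medians were 0.23 and 0.11. Genes that passed the minimum through a single high library, such as COL4A3, could only appear as changed.

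COL7A1, the chain of anchoring fibrils, was the most abundant, at 83.9 FPKM in normoxic and 148.7 in hypoxic scrambled cells, and 108.4 and 229.5 in the corresponding TET1-si cells. COL17A1, the hemidesmosomal collagen, followed, with 77.3, 26.1, 146.8 and 60.3 FPKM, so that it was higher in hypoxia and lower after TET1-si. COL16A1 had 33.4, 33.9, 41.6 and 88.7 FPKM and stood apart in H-si. These 3 chains belong to collagens other than the classical fibrils.

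Among the fibrillar chains, COL1A1 had 5.29 and 14.0 FPKM in normoxia (scrambled, then TET1-si) and 28.6 and 37.0 in hypoxia, while COL1A2, its partner in type I collagen, was listed at 0 in the 4 libraries. COL5A1 had 0.624, 10.5, 4.18 and 32.1 FPKM, at least 2-fold higher both in hypoxia and after TET1-si. COL27A1 stayed between 22.9 and 29.8. COL1A1 and COL5A1 had N-scr lowest and H-si highest, as LOXL2 and LOXL4 had, but COL5A1 was higher in N-si than in H-scr. P4HA1, PLOD1, COL7A1 and COL16A1 also had N-scr lowest and H-si highest, so this was not particular to those genes. The share of all genes with this order was not counted.

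Of the type VI chains, COL6A1 and COL6A2 were higher after TET1-si in both oxygen states, with COL6A1 at 3.37, 17.7, 11.6 and 40.7 FPKM and COL6A2 at 1.75, 5.74, 3.05 and 8.43. Both genes lie on chromosome 21. COL6A3, their partner, was at 0.0187 FPKM in H-scr and listed at 0 in the other libraries, and COL6A5 and COL6A6 were at 0.0107 or below. COL12A1 had 18.4, 34.1, 12.3 and 36.0 FPKM, higher in both TET1-si libraries. COL4A2, a basement membrane chain, was lower in hypoxia (30.1 to 19.1 FPKM in scrambled and 55.9 to 22.3 in TET1-si cells), whereas COL4A3 was higher, from 0.011 to 0.516 and from 0.316 to 4.69, with the first value resting on approximately 2 reads. COL8A1 was lower after TET1-si, at 0.31 against 3.22 FPKM in normoxia and 0.233 against 2.01 in hypoxia. COL9A3, outside the rule for named genes and chosen after its values were seen, had 3.91, 18.4, 15.3 and 30.1 FPKM and was the fifth of the chains higher in hypoxic scrambled cells by 2-fold or more, beside COL1A1, COL4A3, COL5A1 and COL6A1.

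Of a list of 21 genes that fold, modify and trim procollagen, 14 passed the minimum, and in hypoxia 1 was at least 2-fold higher and 1 lower in scrambled cells (median -0.19) and 1 higher and 2 lower in TET1-si cells (median -0.30). These counts are 7.14% each way in scrambled cells, against 12.9% and 4.53% of all genes, and 7.14% higher and 14.3% lower in TET1-si cells, against 12.5% and 8.66%. The genes were PCOLCE and LEPREL4 in scrambled cells, and BMP1 on one side and PCOLCE2 and TMEM38B on the other in TET1-si cells. PCOLCE, LEPREL4, BMP1 and TMEM38B were outside the rule for named genes and chosen after their values were seen. After TET1-si, LEPREL1 was at least 2-fold higher in both oxygen states and PCOLCE2 lower in both, and BMP1 (12.6, 17.7, 20.1 and 43.3 FPKM) had changes of 1.11 under hypoxia and 0.48 under normoxia.

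SERPINH1, the collagen chaperone HSP47, had 167.3 FPKM in N-scr and 170.4 in N-si, against 152.4 for H-scr and 140.2 for H-si. PPIB, the prolyl isomerase cyclophilin B, had 601.7, 627.6, 430.7 and 501.2, and FKBP10, another isomerase of collagen folding, had 172.3, 204.8, 100.9 and 151.6. All 3 abundant chaperones were lower in hypoxia in both knockdown states, by less than 2-fold, as P4HB was. LEPRE1, which makes 3-hydroxyproline together with CRTAP, was higher in hypoxia, at 25.3 and 43.3 FPKM in scrambled and 32.9 and 55.2 in TET1-si cells, while CRTAP was lower, at 61.6 and 45.3 and at 91.2 and 49.7.

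LEPREL1, a second prolyl 3-hydroxylase, had 43.8 FPKM in normoxic and 40.7 in hypoxic scrambled cells, and 148.7 and 112.0 in the corresponding TET1-si cells. This was a difference between knockdown states, while its changes in hypoxia were -0.10 and -0.41. PCOLCE2, an enhancer of procollagen processing, had 12.2, 4.67, 10.4 and 0.653 FPKM and was lowest in H-si. MIA3 (the collagen export factor TANGO1) had 37.7, 47.2, 34.8 and 60.6 FPKM, and GLT25D1, which adds galactose to hydroxylysine, had 45.0, 36.3, 44.7 and 35.0. Neither changed by 2-fold in a comparison.

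P4HTM, a transmembrane prolyl hydroxylase related to the collagen enzymes, had 13.0 and 14.6 FPKM in normoxia (scrambled, then TET1-si) and 17.4 and 24.9 in hypoxia. The ascorbate transporter SLC23A2 stayed between 5.53 and 6.01 FPKM, and SLC23A1 was at 0.465 or below. For copper, which the lysyl oxidases need, ATOX1 had 76.6, 121.5, 62.8 and 101.5 FPKM, SLC31A1 had 15.2, 13.3, 13.1 and 7.33, and ATP7A, which loads copper onto secreted enzymes, had 1.69, 0.718, 2.16 and 1.98. Of these 5 supply genes 4 passed the minimum, and ATP7A alone changed by 2-fold in a comparison. Its hypoxia response was 1.35 in TET1-si cells and its TET1-si response was -1.13 under normoxia, both of which rest on its low value in N-si. As 1 of 4 genes each is 25%, against 12.5% of all genes higher and 5.56% lower in the 2 comparisons.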

How the data were processed

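RNA-Seq was analysed for 4 libraries, 1 per group. The authors prepared TruSeq mRNA libraries, sequenced 100 bp reads (single end per the labels, paired end per the study's methods) and used TopHat and Cufflinks with Ensembl annotations on hg19; versions and the Ensembl release are not given in the sources used here. The deposited values are FPKM per gene, 1 column per library.

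Members and gene lists were chosen with earlier results of these data known. The 10 members and the genes that check the labels are named throughout. Of the 2 long lists, genes named were the 8 most abundant with a mean of at least 5 FPKM, and any above the minimum whose hypoxia response (or TET1-si response) reached 2-fold in one direction with both states of the other factor. Start positions had 1 added. IDs on more than 1 row (111) were left out of counts over genes, and a mean of at least 1 FPKM was required there. Changes used a pseudocount of 0.1, and 2-fold was the limit. No test was run, since each group had 1 library. Alternatives were a pseudocount of 1 or none, TPM, median-of-ratios and upper-quartile scaling, a minimum of 5 FPKM or none, and, chosen after seeing the data, changes relative to the 50 nearest expressed protein-coding genes.

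Depth was searched in 4466 genes with 1 exon, where an FPKM reflects whole reads over depth and over length less an offset. Between 95.5% and 96.7% of low values came out whole within 0.05. Reads per gene were approximated as FPKM times depth times the canonical transcript length in GENCODE v44lift37 less 213 bp. Intervals are exact (Clopper-Pearson), except that of a difference between responses, which is a normal approximation. The depth search and the fold calls were tested on simulated data. Python 3.11.15, numpy 2.4.6, pandas 2.3.3 and scipy 1.17.1 were used.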

Additional observations from a re-analysis of the deposited data

Results flagged for a closer look

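For PLOD2, P4HA2 and P4HB, all above the minimum mean of 1 FPKM, the TET1-si response was small and opposite in direction under the 2 oxygen states. LOXL1, below the minimum, had hypoxia responses of opposite direction in the 2 knockdown states, with N-scr listed at 0. The share of all genes with opposite directions was not counted, so nothing is read from how many members had them. With 1 library per group these differences were not tested. The TET1-si response of PLOD2 was 0.27 under normoxia and -0.26 under hypoxia, a difference of -0.53. With median-of-ratios scaling it was 0.10 and -0.39. Relative to the median of its nearest expressed genes it was -0.06 and -0.61, so the directions were then no longer opposite. The TET1-si response of P4HA2 was 0.20 and -0.09, a difference of -0.29, and with median-of-ratios scaling it was 0.03 and -0.21. That of P4HB was 0.12 and -0.06, a difference of -0.18, and its sign turned under other scalings.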

How the results depend on the processing

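Of 198 member changes recomputed with another pseudocount or scaling, 190 kept their sign, and the 8 that did not were TET1-si responses of P4HA1, P4HB and PLOD1. For P4HB these values were -0.05 under normoxia with median-of-ratios scaling and 0.01 under hypoxia with TPM. Of 78 recomputed changes that were at least 2-fold as reported, 73 stayed so, and the other 5 were changes of LOX and LOXL1 at a pseudocount of 1, with -0.68 and -0.75 for LOX after TET1-si. The count of members at least 2-fold changed was the same under each scaling and pseudocount and at a minimum of 5 FPKM. Without a minimum it was 3 for TET1-si under normoxia, where LOX and LOXL1 enter, and larger by 1 in each other comparison. The added gene was LOX for TET1-si under hypoxia and LOXL1 for hypoxia in each knockdown state. LOXL1 was counted against its listed 0 in N-scr for TET1-si under normoxia and for hypoxia in scrambled cells. A pseudocount of 1 lowered the share of all genes at least 2-fold changed from 17.7% to 11.6% for TET1-si under normoxia and from 17.4% to 11.4% for hypoxia in scrambled cells. The median of the 10 members ranged from 0.53 to 1.14 (hypoxia, scrambled), 0.43 to 0.91 (hypoxia, TET1-si), -0.14 to 0.05 (TET1-si under hypoxia) and -0.01 to 0.21 (TET1-si under normoxia). The collagen chain median ranged from 0.23 to 1.03 for TET1-si under hypoxia and from 0.11 to 0.89 under normoxia. No paired analysis was possible because each group of a comparison had 1 library, and no library could be left out for the same reason. An additive fit of oxygen and knockdown over the 4 libraries was not run. Depth limits LOX and LOXL1, and the lack of replicates limits every value.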
